A study of Mus musculus with 2 samples.

Results

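The J genes of the TCR α-chain (TRAJ) were described in 2 libraries of T cells from the liver of TG mice, the first of CD8αα and the second of CD8αβ T cells. The lists deposited for these cells hold clonotypes, each given as a CDR3 in nucleotides, the V and J genes it matched and a count of reads. A clonotype was taken when its first V hit was a TRAV gene and its first J hit a TRAJ gene. Of the 60 TRAJ genes and pseudogenes in the annotation, 43 had reads in at least 1 library, and these were 43 of the 72 J genes of all receptor chains with reads. TG mice carry dnTGFβRII, a dominant negative human TGFβ receptor type II driven by the mouse CD4 promoter, on the C57BL/6 strain, and both cell types came from TG mice aged 10 weeks per the labels. Cells were sorted on CD8 chains, and bulk RNA sequencing gave 1 library per cell type. No library of wild-type cells was among the samples, and the number of mice behind a library was not given in the sources used here.

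A TCR α-chain is made when recombination joins a V gene to a J gene and removes the DNA between them. The J gene supplies the end of CDR3, the loop that contacts the antigen, and the stretch that links it to the constant region. The mouse α locus holds an unusually long row of J genes, and a chromosome can recombine more than once, with later joins reaching V genes farther upstream and J genes farther downstream. J genes with high numbers therefore mark joins near the V genes, and J genes with low numbers mark joins near the constant gene TRAC. Invariant NKT cells and MAIT cells, which are T cells abundant in liver or mucosa in some species, are known for fixed joins to TRAJ18 and TRAJ33.

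In the mm10 build, the TRAJ genes lay on the plus strand of chr14:54155005-54218842, a stretch of 63.8 kb that ended before TRAC at chr14:54220521-54224206. Their numbers fell without exception along the chromosome. The annotation (GENCODE M21, the same build) held 51 TRAJ genes and 9 pseudogenes.

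The CD8αα T cell library held 222 TRAV-TRAJ clonotypes with 1352 reads, which was 22.0% of the 6133 reads listed over all chains. The CD8αβ T cell library held 452 clonotypes with 892 reads, 27.7% of 3215. The mean was 6.09 reads per clonotype in CD8αα and 1.97 in CD8αβ T cells, and 32.0% and 62.2% of the clonotypes rested on 1 read. Of all clonotypes, 178 and 319 also had a constant region hit, and 0 of these hits was to a gene other than TRAC. Chains of γδ T cells were also looked for. Reads of TCR γ-chain genes were 7.04% of all reads in CD8αα and 0.560% in CD8αβ T cells, but TRDJ1, the J gene seen for the δ-chain, had only 11 and 2 reads. The γ-chain share was therefore not taken as a share of γδ T cells. Reads of immunoglobulin genes, which mark B cells, were 21.8% and 13.7%. The part of these cells in the TRAJ values was not tested. In bulk RNA, more cells with a join and more RNA from each such cell cannot be told apart. Every test below compares these 2 libraries and not the 2 cell types in general, and the 95% Wilson intervals and the floor of 3 reads (0.222% of TRAV-TRAJ reads in CD8αα and 0.336% in CD8αβ T cells) cover counting error only. Tests and intervals on reads count every read as a separate draw. Reads of the same clonotype are not independent and had no molecular identifiers, so these p-values and intervals do not measure the spread over cells or RNA molecules.

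The germline sequences of the genes that led the read or clonotype counts, and of TRAJ40, are shown from the annotation's transcripts, since they set the end of each CDR3 described here. Capitals mark the last codon of CDR3 and the 3 codons after it, the start of the stretch that links CDR3 to the constant region.
TRAJ57 (chr14:54158505-54158569): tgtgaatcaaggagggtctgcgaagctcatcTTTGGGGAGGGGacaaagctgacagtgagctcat
TRAJ49 (chr14:54168686-54168747): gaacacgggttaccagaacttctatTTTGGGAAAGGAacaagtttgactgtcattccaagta
TRAJ40 (chr14:54177921-54177981): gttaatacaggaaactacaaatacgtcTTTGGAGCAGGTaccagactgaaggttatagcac
TRAJ22 (chr14:54197248-54197307): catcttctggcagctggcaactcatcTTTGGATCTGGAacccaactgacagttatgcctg
TRAJ13 (chr14:54205741-54205797): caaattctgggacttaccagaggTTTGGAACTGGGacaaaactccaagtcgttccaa
From its first base to the end of CDR3, TRAJ57 was the longest of these at 34 bases and TRAJ13 the shortest at 26.

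Read use of the TRAJ genes differed widely between the libraries. In CD8αα T cells TRAJ13 held 259 of 1352 reads (19.2%, interval 17.1 to 21.3%) and TRAJ49 held 179 (13.2%, 11.5 to 15.2%). In CD8αβ T cells TRAJ57 held 116 of 892 reads (13%, 11 to 15.4%) and TRAJ22 held 77 (8.63%, 6.96 to 10.7%). The effective number of TRAJ genes by reads, the inverse of the summed squared shares, was 13.2 in CD8αα and 21.6 in CD8αβ T cells, and 6 and 9 genes were enough to cover 50% of the reads. By Fisher's exact tests, two-sided and Benjamini-Hochberg adjusted over the 72 J genes of all chains, 29 of 43 TRAJ genes differed in read share, where 58.3% of all 72 J genes did. The share was higher in CD8αα T cells for 10 TRAJ genes (19.4% of all J genes were) and lower for 19 (38.9% of all J genes were).

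**Figure D1:**
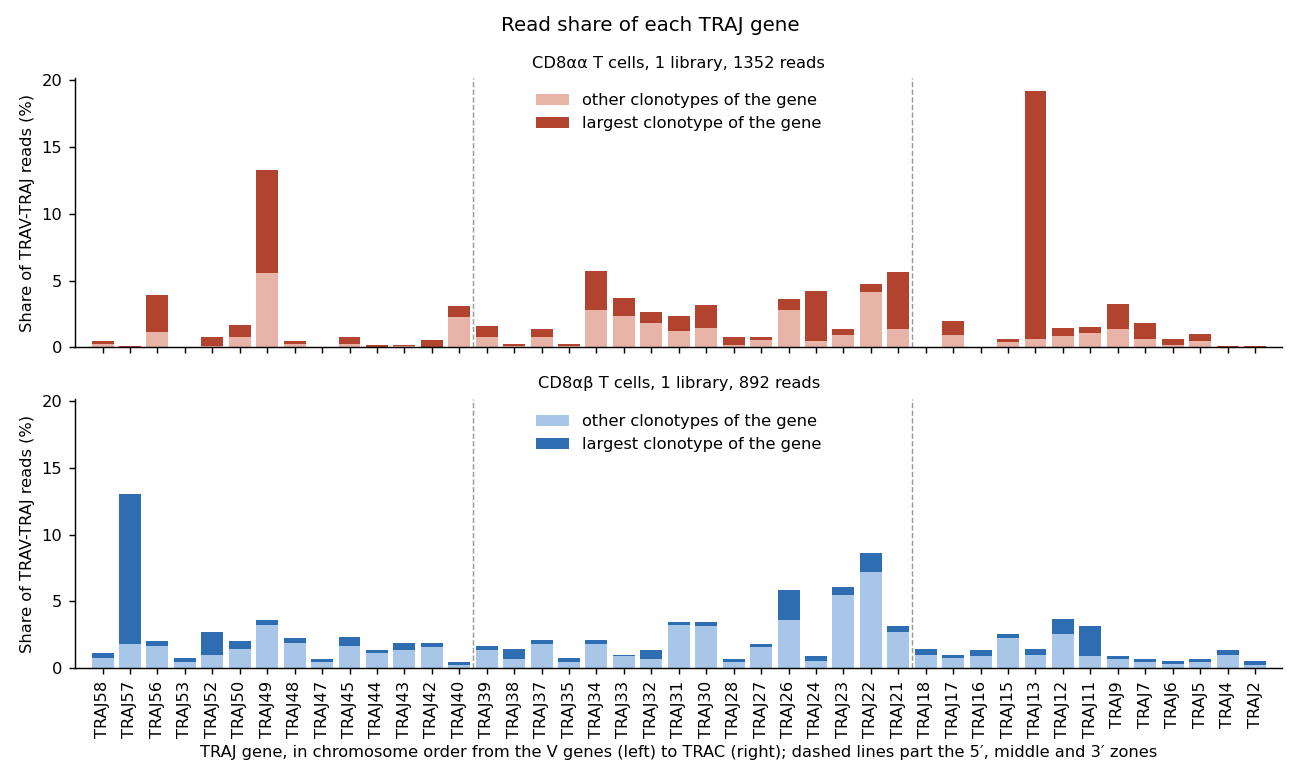
Share of TRAV-TRAJ reads (%) held by each of the 43 TRAJ genes with reads, in chromosome order, for CD8αα (top, 1352 reads) and CD8αβ T cells (bottom, 892 reads), 1 library each. The dark part of a bar is the largest clonotype of the gene, which made up 250 of the 259 TRAJ13 reads in CD8αα and 100 of the 116 TRAJ57 reads in CD8αβ T cells.

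Single clonotypes held more of a gene's reads in the CD8αα than in the CD8αβ library. Among genes with at least 10 reads, the largest clonotype held over 50% of the gene's reads for 14 of 27 genes in CD8αα and for 4 of 30 in CD8αβ T cells, and the median share of the largest clonotype was 50.6% and 22.5%. The CDR3 sequences of the 5 largest clonotypes of each library are shown because they were the most abundant TRAJ joins. Capitals mark the bases that match the germline J gene without a break up to the end of CDR3.
CD8αα TRAV13D-2-TRAJ13: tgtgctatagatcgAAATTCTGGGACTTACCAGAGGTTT
CD8αα TRAV16D-DV11-TRAJ49: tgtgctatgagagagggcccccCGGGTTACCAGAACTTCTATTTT
CD8αα TRAV4D-3-TRAJ21: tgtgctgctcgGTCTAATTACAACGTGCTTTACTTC
CD8αα TRAV10N-TRAJ24: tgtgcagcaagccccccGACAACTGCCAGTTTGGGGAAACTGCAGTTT
CD8αα TRAV4-4-DV10-TRAJ34: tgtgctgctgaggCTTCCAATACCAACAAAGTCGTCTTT
CD8αβ TRAV19-TRAJ57: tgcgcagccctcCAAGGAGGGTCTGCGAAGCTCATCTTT
CD8αβ TRAV6D-7-TRAJ26: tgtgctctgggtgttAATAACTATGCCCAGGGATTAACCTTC
CD8αβ TRAV12D-2-TRAJ11: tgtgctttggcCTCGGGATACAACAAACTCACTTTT
CD8αβ TRAV12D-3-TRAJ52: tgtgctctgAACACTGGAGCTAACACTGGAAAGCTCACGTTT
CD8αβ TRAV6-6-TRAJ22: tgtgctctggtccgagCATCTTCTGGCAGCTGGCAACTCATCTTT
These 5 clonotypes of CD8αα T cells had 250, 104, 57, 50 and 39 reads, and those of CD8αβ T cells had 100, 20, 20, 15 and 13. The TRAJ13 clonotype kept 25 of the 26 germline J bases and had 0 inserted bases, and the TRAJ57 clonotype kept 27 of 34 with 4 inserted. In the TRAJ49 clonotype 5 of the 28 germline J bases were trimmed and 2 bases were inserted between V and J, and in the TRAJ24 clonotype 1 of 32 was trimmed and 5 were inserted. The first V hit of the TRAJ13 clonotype tied with TRAV13N-2, that of the TRAJ21 clonotype with TRAV4N-3, and those of the CD8αβ clonotypes with TRAJ11, TRAJ52 and TRAJ22 were tied with other TRAV genes as well.

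In the 5′ zone, TRAJ40 and above, TRAJ49 had the most reads in CD8αα T cells, and TRAJ57 followed by TRAJ49 in CD8αβ T cells. TRAJ57, 62.0 kb before TRAC, had 1 read in CD8αα T cells against 116 in CD8αβ T cells (adjusted p = 7.4e-46, Fisher's exact test). Without the largest TRAJ57 clonotype of each library the counts were 0 of 1351 and 16 of 792 reads, and the share stayed lower in CD8αα T cells (adjusted p = 9.9e-07, Fisher's exact test). The 16 remaining reads came from 11 further CD8αβ clonotypes. TRAJ49 held 13.2% of CD8αα and 3.59% of CD8αβ reads (adjusted p = 6.47e-15, Fisher's exact test), and 6.01% against 3.26% without its largest clonotypes (adjusted p = 0.0113, Fisher's exact test). That remainder in CD8αα T cells held 32 reads with the same nucleotide CDR3 as the largest TRAJ49 clonotype, listed under TRAV16N in place of TRAV16D-DV11. With both entries left out the TRAJ49 shares were 3.54% and 3.26% (adjusted p = 0.980, Fisher's exact test). TRAJ56 held 53 reads (3.92%) in CD8αα T cells, of which 37 were 1 clonotype, and 18 (2.02%) in CD8αβ T cells, and 1.22% against 1.69% without its largest clonotypes (adjusted p = 0.502, Fisher's exact test). TRAJ48 showed the opposite order, with 7 reads (0.518%) and 20 reads (2.24%).

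In the middle zone, TRAJ20 to TRAJ39, TRAJ22 and TRAJ23 were read less in CD8αα T cells, and TRAJ34, TRAJ33, TRAJ24 and TRAJ21 more. TRAJ22 had 64 reads (4.73%) in CD8αα and 77 (8.63%) in CD8αβ T cells (adjusted p = 0.000859, Fisher's exact test), with a largest clonotype of only 8 and 13 reads. TRAJ23 had 19 reads (1.41%) and 54 reads (6.05%), and the difference was there without its largest clonotypes too (0.966% against 5.52%, adjusted p = 2.74e-09, Fisher's exact test). In CD8αβ T cells the reads of these neighbouring genes were spread over 33 and 28 clonotypes. TRAJ24 had 57 reads (4.22%) and 8 (0.897%), and TRAJ21 had 76 (5.62%) and 28 (3.14%). Of those CD8αα reads, 50 of TRAJ24 and 57 of TRAJ21 were 1 clonotype each. Without the largest clonotype of the gene in each library the shares were 0.538% against 0.562% for TRAJ24 and 1.47% against 2.70% for TRAJ21, which no longer passed (adjusted p = 1.00 and 0.114, Fisher's exact tests). TRAJ34 had 77 reads (5.70%) and 19 (2.13%), and 2.89% against 1.80% without its largest clonotypes (adjusted p = 0.205, Fisher's exact test). TRAJ26 was lower by reads in CD8αα T cells, with 49 reads (3.62%) and 52 (5.83%), and 2.83% against 3.67% without its largest clonotypes (adjusted p = 0.452, Fisher's exact test). TRAJ30, TRAJ31 and TRAJ32 did not pass the test by reads, with adjusted p of 0.821, 0.208 and 0.0609 by Fisher's exact tests. TRAJ30 held 43 and 31 reads, TRAJ31 held 32 and 31, and TRAJ32 held 36 and 12. TRAJ33, the J gene of the MAIT chain, had 50 reads (3.70%) in 6 CD8αα clonotypes and 9 reads (1.01%) in 9 CD8αβ clonotypes. By reads it was higher in CD8αα T cells with and without its largest clonotypes (adjusted p = 0.000275 and 0.0226, Fisher's exact tests). After the largest CD8αα clonotype, of 18 reads, the next had 13, and a further CDR3 had 12 reads under 2 V genes. By clonotypes TRAJ33 held 2.70% in CD8αα and 1.99% in CD8αβ T cells (adjusted p = 0.982, Fisher's exact test).

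In the 3′ zone, TRAJ19 and below, a TRAJ13 join stood out in the CD8αα library and no gene of like height was seen in the CD8αβ library. TRAJ13 had 259 reads against 13 (adjusted p = 1.45e-43, Fisher's exact test). Without its largest clonotype in each library, 9 reads (0.817%) remained in CD8αα and 9 (1.01%) in CD8αβ T cells (adjusted p = 0.813, Fisher's exact test). TRAJ9 had 44 reads (3.25%) in CD8αα T cells, of which 25 were 1 clonotype, and 8 reads (0.897%) in CD8αβ T cells, and without its largest clonotypes it did not pass (adjusted p = 0.180, Fisher's exact test). TRAJ12 had 20 reads (1.48%) and 33 (3.70%), TRAJ11 had 21 (1.55%) and 28 (3.14%), and TRAJ15 had 9 (0.666%) and 23 (2.58%). All 3 of these were lower by reads in CD8αα T cells. By clonotypes TRAJ12 (3.15% against 2.65%) and TRAJ11 (3.60% against 1.55%) were higher in CD8αα T cells and TRAJ15 was lower (1.35% against 3.54%). None of these differences by clonotypes passed. For TRAJ11, 1 CD8αβ clonotype held 20 of the 28 reads, and without the largest clonotypes of both libraries the shares were 1.11% against 0.917% (adjusted p = 0.980, Fisher's exact test), so that the direction turned and the call was lost.

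Taking out each gene's own largest clonotype, a comparison added after the values had been seen, kept the direction and the call for 3 of the 10 TRAJ genes higher in CD8αα T cells (TRAJ33, TRAJ40 and TRAJ49) and for 14 of the 19 lower ones. Of all 72 J genes, 8.33% were then called higher and 34.7% lower in CD8αα T cells, TRAJ30 and TRAJ31 among the lower. For 4 of the 10 the share then lay below that of CD8αβ T cells, and for 1 of the 19, TRAJ11, above it. Where entries of the same CDR3 under several V genes were taken out together, 2 of the 10 (TRAJ33 and TRAJ40) and 14 of the 19 remained, with 6.94% of all 72 J genes called higher and 34.7% lower. In both comparisons the total of a library still held the large clonotypes of other genes, which lower the share of every gene without one. The higher and the lower genes were thus not put to an equal test, and by clonotypes 0 TRAJ genes were called lower in CD8αα T cells. Across the 43 genes, read shares of the libraries had Pearson's r = 0.0655 and Spearman's rho = 0.277, and clonotype shares had r = 0.627 and rho = 0.413. These describe genes of the same 2 libraries, which are not independent replicates.

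Counted by clonotypes, fewer TRAJ genes differed. A clonotype counts equally whatever its reads, so that a count of clonotypes follows the entries of the list and not their abundance. TRAJ40 was the gene that differed, 1 of 43 TRAJ genes by the same Fisher's exact tests, where 1.39% of all 72 J genes did. At an unadjusted p under 0.05 there were 2 TRAJ genes, TRAJ40 and TRAJ9, and 4 of all 72 J genes (5.56%). TRAJ9 had 9 clonotypes (4.05%) in CD8αα and 6 (1.33%) in CD8αβ T cells (p = 0.0469, adjusted p = 0.624, Fisher's exact test). The effective number of genes by clonotypes was 23.4 in CD8αα and 30.6 in CD8αβ T cells, with 10 and 12 genes covering 50% of the clonotypes. With 222 clonotypes against 452, the intervals of CD8αα T cells were wider.

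**Figure D2:**
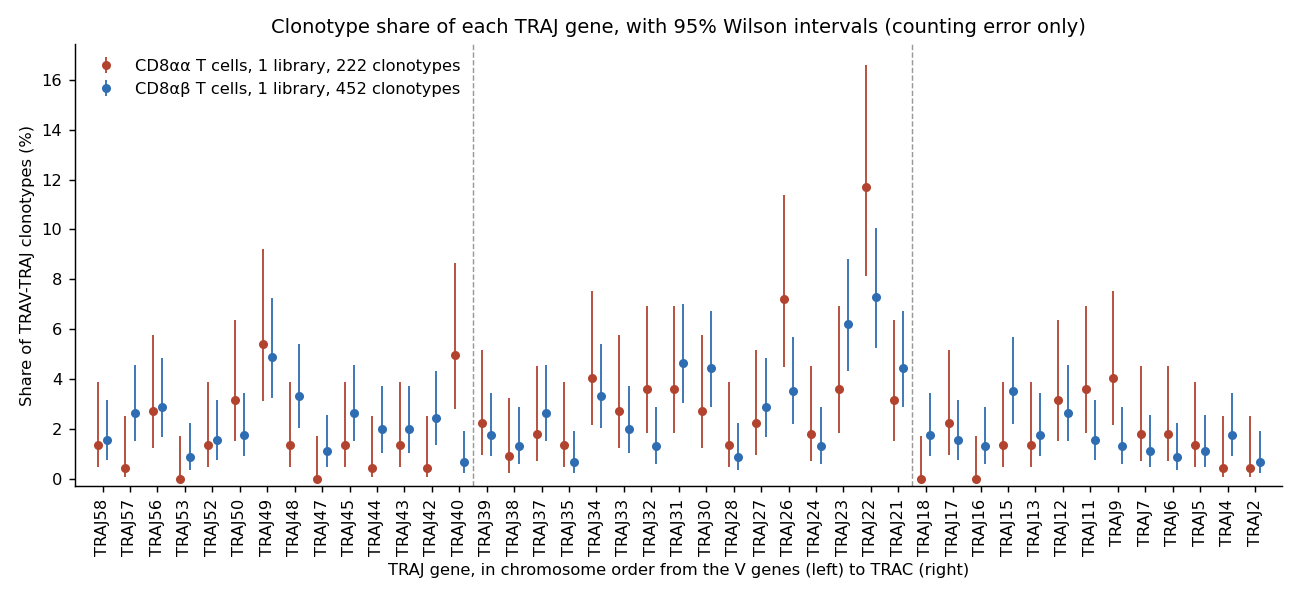
Share of TRAV-TRAJ clonotypes (%) of each TRAJ gene in chromosome order, with 95% Wilson intervals, for CD8αα (222 clonotypes) and CD8αβ T cells (452 clonotypes), 1 library each. Intervals of the libraries overlap for most genes, and TRAJ40 is at 4.95% in CD8αα against 0.664% in CD8αβ T cells.

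TRAJ40 had 11 of 222 clonotypes in CD8αα T cells (4.95%, 2.79 to 8.65%) and 3 of 452 in CD8αβ T cells (0.664%, 0.226 to 1.93%), with p = 0.000541 and adjusted p = 0.0390 by Fisher's exact test. By reads it had 42 (3.11%) and 4 (0.448%), and its largest CD8αα clonotype held 11. With clonotypes of at least 2 reads alone, the difference by clonotypes did not pass (lowest adjusted p over all J genes 0.363, Fisher's exact test), and 4 of the 11 CD8αα and 2 of the 3 CD8αβ clonotypes rested on 1 read. The 7 CD8αα clonotypes of at least 2 reads and all 3 CD8αβ clonotypes are shown because this was the gene called by clonotypes, with capitals for the unbroken germline J match and the reads in brackets.
CD8αα TRAV12-2-TRAJ40 (11 reads): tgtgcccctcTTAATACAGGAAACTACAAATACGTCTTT
CD8αα TRAV12-2-TRAJ40 (9 reads): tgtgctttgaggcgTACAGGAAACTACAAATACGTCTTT
CD8αα TRAV12-2-TRAJ40 (6 reads): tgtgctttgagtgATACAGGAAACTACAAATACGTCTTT
CD8αα TRAV7-6-TRAJ40 (5 reads): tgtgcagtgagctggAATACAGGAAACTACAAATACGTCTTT
CD8αα TRAV9N-3-TRAJ40 (3 reads): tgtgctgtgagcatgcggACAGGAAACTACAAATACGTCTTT
CD8αα TRAV3-3-TRAJ40 (2 reads): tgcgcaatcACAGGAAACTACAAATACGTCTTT
CD8αα TRAV14-1-TRAJ40 (2 reads): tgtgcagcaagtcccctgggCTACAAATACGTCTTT
CD8αβ TRAV4-3-TRAJ40 (2 reads): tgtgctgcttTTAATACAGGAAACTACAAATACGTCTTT
CD8αβ TRAV14-1-TRAJ40 (1 read): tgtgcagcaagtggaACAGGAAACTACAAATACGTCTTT
CD8αβ TRAV12D-3-TRAJ40 (1 read): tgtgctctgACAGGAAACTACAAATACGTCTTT
In CD8αα T cells the 11 clonotypes used V genes of 6 TRAV families, and 3 of them, with 26 reads together, joined TRAV12-2 and had CDR3s of 13 residues. The 3 CD8αβ clonotypes came from 3 families.

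TRAJ22 was the most used gene by clonotypes in both libraries. It had 26 clonotypes (11.7%, 8.12 to 16.6%) in CD8αα and 33 (7.30%, 5.25 to 10.1%) in CD8αβ T cells, which did not pass (p = 0.0607, adjusted p = 0.624, Fisher's exact test). V genes of 9 families were joined to it in each library. TRAJ26 followed in CD8αα T cells with 16 clonotypes (7.21%), against 16 (3.54%) in CD8αβ T cells. For TRAJ22 and TRAJ26 the direction by clonotypes was thus opposite to that by reads. TRAJ23 followed in CD8αβ T cells with 28 clonotypes (6.19%), against 8 (3.60%). TRAJ49 had 12 (5.41%) and 22 (4.87%), and TRAJ34 had 9 (4.05%) and 15 (3.32%). For TRAJ13 and TRAJ57, the leading genes by reads, there were 3 and 1 clonotypes in CD8αα and 8 and 12 in CD8αβ T cells, so neither stood high by this measure.

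Some TRAJ genes were in 1 library or in neither. All 39 TRAJ genes of CD8αα T cells were also found in CD8αβ T cells, and 4 more, TRAJ53, TRAJ47, TRAJ18 and TRAJ16, were found in CD8αβ T cells alone. TRAJ18 had 0 of 1352 reads in CD8αα T cells, with a Wilson interval up to 0.283%. In CD8αβ T cells it had 13 of 892 reads (1.46%) in 8 clonotypes (adjusted p = 3.25e-05 by reads and 0.624 by clonotypes, Fisher's exact tests). TRAJ16 had 12 CD8αβ reads, TRAJ53 had 7 and TRAJ47 had 6, in 6, 4 and 5 clonotypes. By clonotypes these did not pass either (adjusted p = 0.811, 0.854 and 0.811, Fisher's exact tests), and the CD8αα list was the shorter, with 222 clonotypes against 452. Among the J genes of other chains, IGLJ4 was found in CD8αβ T cells alone, and TRGJ1 and TRGJ3 in CD8αα T cells alone. In neither library were reads found for 17 entries of the annotation. These were all 9 pseudogenes and the 8 genes TRAJ59, TRAJ46, TRAJ41, TRAJ29, TRAJ25, TRAJ20, TRAJ19 and TRAJ3.

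Joins that mark invariant T cells were looked for among the pairs with TRAJ18 and TRAJ33. The invariant NKT pair, TRAV11 or a copy of it with TRAJ18, had 0 reads in each library, and 1 CD8αβ clonotype of 1 read used such a V gene with another J gene. The MAIT pair, TRAV1 with TRAJ33, also had 0 reads in each library, although TRAV1 itself had 17 reads in 2 CD8αα clonotypes and 3 reads in 1 CD8αβ clonotype. The floor of 3 reads was 0.222% of CD8αα and 0.336% of CD8αβ TRAV-TRAJ reads. The Wilson interval of 0 reads went up to 0.283% and 0.429%, so a share of that size is not excluded for either pair.

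Along the TRAJ row, the 5′ and 3′ zone shares differed between the libraries by reads, and the tests by clonotypes did not pass. By clonotypes, the 5′ zone held 24.3% in CD8αα and 30.3% in CD8αβ T cells, a difference of -5.99 percentage points (95% interval -13 to 1.07, adjusted p = 0.191 over the 7 share tests, Fisher's exact test). The 3′ zone held 21.6% and 21.0% of clonotypes, a difference of 0.604 points (-5.99 to 7.19, adjusted p = 0.920, Fisher's exact test). The first interval leaves room mainly for a lower share in CD8αα T cells, and the second for several points in either direction. The middle zone, which had no test of its own, held 54.1% and 48.7% of clonotypes. By reads, the 5′ zone held 25.7% against 36.1% (difference -10.4 points, adjusted p = 7.22e-07, Fisher's exact test) and the 3′ zone 31.8% against 19.4% (difference 12.4 points, adjusted p = 4.24e-10, Fisher's exact test). Both read differences turned when the largest clonotype of each library, a TRAJ13 and a TRAJ57 join, was left out, to 3.55 points for the 5′ zone (p = 0.104, Fisher's exact test) and -5.51 points for the 3′ zone (p = 0.00276, Fisher's exact test). With the 2 largest left out, the difference was -4.31 points for the 5′ zone (p = 0.0441, Fisher's exact test), in the first direction again, and -4.37 points for the 3′ zone (p = 0.0228, Fisher's exact test). The mean TRAJ number over clonotypes was 29.0 ± 13.9 (SD, 222 clonotypes) in CD8αα and 30.9 ± 14.6 (SD, 452 clonotypes) in CD8αβ T cells.

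The position of the joined V gene followed that of the J gene in both libraries. Of the 128 annotated TRAV genes, the 64 nearer to the J genes were called C-proximal. They were used by 81.5% of CD8αα clonotypes with a J gene of the 5′ zone (44 of 54, 69.2 to 89.6%), 59.2% in the middle zone (71 of 120, 50.2 to 67.5%) and 39.6% in the 3′ zone (19 of 48, 27.0 to 53.7%). In CD8αβ T cells these values were 81.0% (111 of 137, 73.6 to 86.7%), 63.6% (140 of 220, 57.1 to 69.7%) and 38.9% (37 of 95, 29.8 to 49.0%). By first V hit the libraries thus had near equal values in each zone, with overlapping intervals, while the 5′ and 3′ zones of a library did not overlap. Since the TRAV genes of the mouse hold near-identical copies, 28.4% of CD8αα and 37.2% of CD8αβ clonotypes had first V hits tied across C-proximal and distal genes. Without them the 3 values were 86.7%, 57.0% and 35.7% in CD8αα and 84.9%, 68.3% and 45.5% in CD8αβ T cells, in the same order along the row. The libraries then lay farther apart in the middle and 3′ zones, with lower values in CD8αα T cells. Their intervals still overlapped, at 46.4 to 66.9% against 59.6 to 75.9% in the middle zone. In the 3′ zone they were 20.7 to 54.2% against 33.0 to 58.5%.

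**Figure D3:**
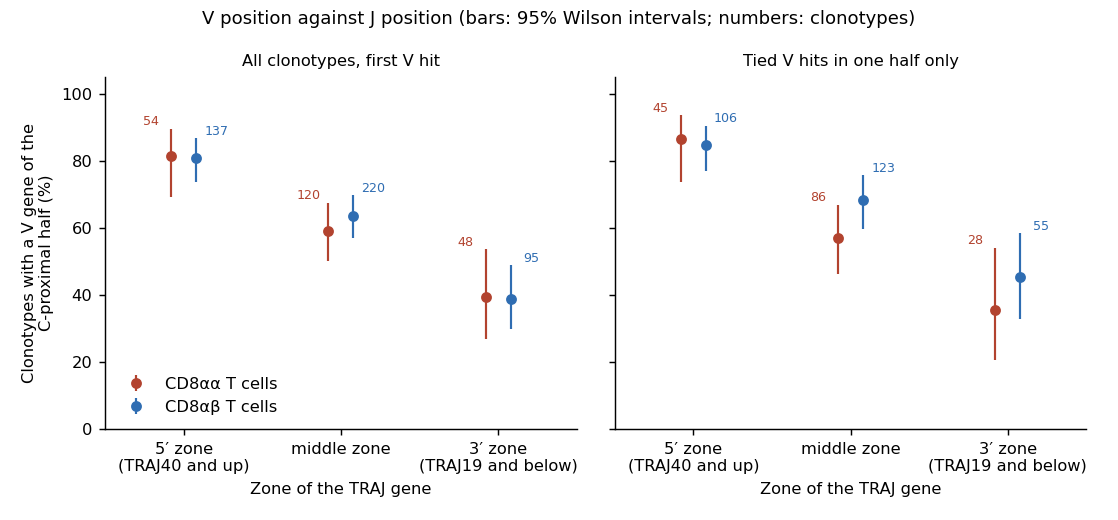
Share of clonotypes (%) whose V gene was C-proximal, by zone of the TRAJ gene, for CD8αα and CD8αβ T cells (1 library each), with 95% Wilson intervals and the number of clonotypes beside each point. The left panel holds all clonotypes and the right panel those whose tied V hits lie on 1 side, and in both panels the share is lower from the 5′ zone (81.5% and 81.0% at left) to the 3′ zone (39.6% and 38.9%).

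Over clonotypes, the TRAJ number and the rank of the V gene along the chromosome had Spearman's rho = 0.343 in CD8αα (222 clonotypes) and 0.400 in CD8αβ T cells (452 clonotypes). Over all zones C-proximal V genes were used by 60.4% of CD8αα and 63.7% of CD8αβ clonotypes, a difference of -3.36 points (-11.2 to 4.46, adjusted p = 0.465, Fisher's exact test). With every clonotype of tied V hits left out the difference was -11.5 points (p = 0.0121, Fisher's exact test), and with those tied across C-proximal and distal genes alone left out, an alternative added after seeing the data, it was -8.44 points (p = 0.0741, Fisher's exact test).

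V pairing of the TRAJ genes was broad in both libraries. By first V hit there were 198 V-J pairs over 66 TRAV genes in CD8αα and 378 over 77 TRAV genes in CD8αβ T cells. That hit was tied for 36.5% and 46.5% of clonotypes, and a CDR3 listed under several V genes counted once for each. A pair had 1 clonotype in 89.4% and 84.1% of cases, and no pair had more than 3 clonotypes in CD8αα or 4 in CD8αβ T cells. The 46 pairs found in both libraries were 23.2% of the CD8αα and 12.2% of the CD8αβ pairs. By family of the V gene, 92 pairs were in both, which was 58.6% of 157 CD8αα and 35.5% of 259 CD8αβ family pairs.

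The pairs with the most reads were single clonotypes or nearly so. TRAV13D-2-TRAJ13 had 250 reads in CD8αα T cells, all in 1 clonotype, and TRAV19-TRAJ57 had 101 reads in CD8αβ T cells in 2 clonotypes of 100 reads and 1 read. By clonotypes, TRAV12-2-TRAJ40, TRAV4-3-TRAJ34 and TRAV16N-TRAJ56 led in CD8αα T cells with 3 each and 26, 22 and 12 reads. TRAV6-6-TRAJ24 led in CD8αβ T cells with 4 clonotypes and 6 reads. By V family, TRAJ34 with TRAV4 genes (5 clonotypes, 63 reads) and TRAJ22 with TRAV12 genes (5 clonotypes, 6 reads) led in CD8αα T cells, although the 5 clonotypes of the first held 3 separate CDR3s and those of the second 5. In CD8αβ T cells, TRAJ23 with TRAV12 genes (8 clonotypes, 17 reads) and TRAJ49 with TRAV13 genes (8 clonotypes, 10 reads) led.

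The same nucleotide CDR3 and TRAJ gene was sometimes listed under more than 1 V gene. In CD8αα T cells this held for 10 CDR3s, which made 20 of the 222 clonotypes and 314 of the 1352 reads, and in each case the V genes were of 1 family. For CD8αβ T cells it held for 1 TRAJ22 CDR3 with 4 reads. The largest case was the TRAJ49 CDR3 shown above, with 104 reads under TRAV16D-DV11 and 32 under TRAV16N. TRAJ34 had 2 such CDR3s, the first with 39 reads under TRAV4-4-DV10 and 10 under TRAV4-3, the second with 2 and 11. Whether these were separate joins or 1 join with its V hit split cannot be told apart here. Counting an amino acid CDR3 and its J gene as 1 clonotype left TRAJ40 as the gene called by clonotypes.

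CDR3 length was near equal in the libraries when each clonotype counted equally. The mean was 13.5 ± 1.42 residues (SD, 222 clonotypes) in CD8αα and 13.6 ± 1.40 (SD, 452 clonotypes) in CD8αβ T cells, a difference of -0.117 residues (95% interval -0.343 to 0.110), and 14 residues was the commonest length in both. CDR3s of 13 residues or fewer made up 47.3% and 40.9% of clonotypes (difference 6.37 points, -1.61 to 14.3, adjusted p = 0.191, Fisher's exact test). By reads they made up 55.5% and 46.5% (difference 9.02 points, adjusted p = 7.85e-05, Fisher's exact test). That read difference sat at a length of 13 residues, with 521 of 1352 reads in CD8αα and 258 of 892 in CD8αβ T cells, and the largest clonotypes, the TRAJ13 join of 250 reads and the TRAJ57 join of 100 reads, both had this length. Without these joins the difference by reads was 5.69 points (p = 0.0145, Fisher's exact test), and the share of CDR3s of 13 residues was 24.6% against 19.9%. With the 2 largest clonotypes of each library left out, an alternative added after seeing the data, the difference by reads was 9.40 points (p = 9.74e-05, Fisher's exact test). With the limit at 12 or at 14 residues the difference by reads was -0.589 or -2.06 points (p = 0.732 and 0.268, Fisher's exact tests).

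**Figure D4:**
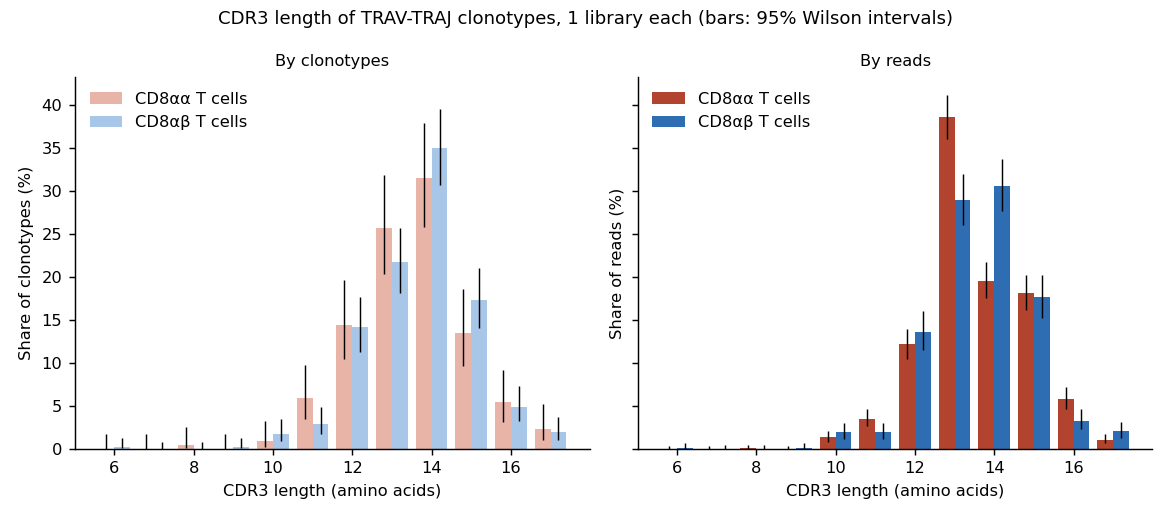
Share of clonotypes (left) and of reads (right), in %, by CDR3 length in amino acids for CD8αα and CD8αβ T cells, 1 library each, with 95% Wilson intervals. By clonotypes both distributions are highest at 14 residues, and by reads CD8αα T cells are highest at 13 residues with 38.5%.

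J bases made up the larger part of each CDR3 on average. In 211 CD8αα and 437 CD8αβ clonotypes without a mismatch to the germline J gene in the deposited alignment, their share of the CDR3 was 64.9% and 65.4%. On average 26.3 ± 3.55 J bases (SD) remained in CD8αα and 26.7 ± 3.23 in CD8αβ clonotypes, a difference of -0.428 bases (-0.995 to 0.138). Trimming removed 3.01 ± 2.82 and 2.78 ± 2.72 J bases, and 2.58 ± 2.17 and 2.49 ± 2.13 bases were inserted between V and J. The intervals of these differences included 0, at -0.227 to 0.690 bases for trimming and -0.261 to 0.447 for insertion. J genes were untrimmed in 22.7% and 27.0% of clonotypes, and 18.5% and 22.2% had no inserted base.

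The genes differed among themselves in this respect. Over the 41 TRAJ genes with at least 5 clonotypes in the libraries together, germline bases up to the end of CDR3 and mean CDR3 length had Pearson's r = 0.790 and Spearman's rho = 0.797. TRAJ31, with 26 germline bases, had a mean CDR3 of 12.3 residues (29 clonotypes), and TRAJ18, with 35, had 14.8 (8 clonotypes). TRAJ22, with 29, had 13.8 (59 clonotypes). Among the 4 genes with 30 germline bases TRAJ40 had the shortest mean CDR3, 12.9 residues against 13.6 to 14.3, and its clonotypes had lost 4.71 J bases on average against 2.56 to 3.0 in the others. Among those with 32 germline bases, TRAJ17 and TRAJ39 had the shortest, 13.3 and 13.5 residues, with 5.83 and 5.85 J bases lost. By zone, mean CDR3 length was 14.1 ± 1.45, 13.3 ± 1.37 and 13.4 ± 1.35 residues (SD) from 5′ to 3′ in CD8αα and 14 ± 1.28, 13.5 ± 1.34 and 13.6 ± 1.60 in CD8αβ T cells.

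**Figure D5:**
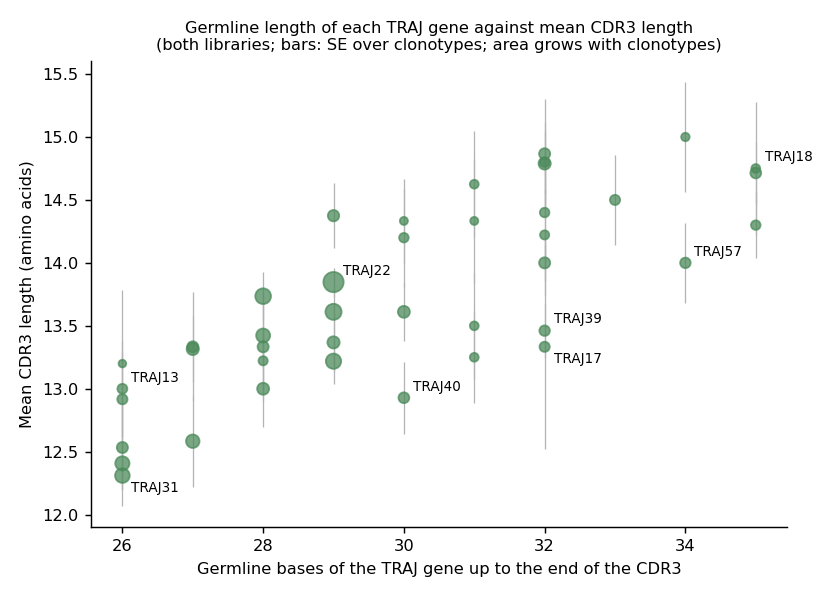
Mean CDR3 length in amino acids against the germline bases of the TRAJ gene up to the end of CDR3, 1 point for each of 41 genes with at least 5 clonotypes in both libraries together, with the SE over clonotypes and an area that grows with their number. Genes with longer germline J parts tend to lie higher, with TRAJ31 (26 bases) at 12.3 residues and TRAJ18 (35 bases) at 14.8. The means of TRAJ40, TRAJ39 and TRAJ17 lie below those of other genes of their germline length, that of TRAJ17 with a wide spread (SD 2.81, 12 clonotypes).

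Clonotypes shared by the libraries were few. With V gene, J gene and nucleotide CDR3 all required to match, 0 of 222 CD8αα and 452 CD8αβ clonotypes were shared. With J gene and nucleotide CDR3, 1 was, a TRAJ23 join with 6 reads under TRAV14N-3 in CD8αα and 1 read under TRAV14D-1 in CD8αβ T cells. With J gene and amino acid CDR3, 5 were, which was 2.38% of 210 in CD8αα and 1.11% of 449 in CD8αβ T cells, and they used TRAJ23, TRAJ24, TRAJ27, TRAJ38 and TRAJ43. The TRAJ23 and TRAJ24 joins are shown because the first matched in every base and the second held the fourth largest CD8αα clonotype. Capitals mark the unbroken germline J match.
TRAJ23, both libraries: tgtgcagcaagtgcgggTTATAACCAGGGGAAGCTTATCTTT
TRAJ24, CD8αα (TRAV10N, 50 reads): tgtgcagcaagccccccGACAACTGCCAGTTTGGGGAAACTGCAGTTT
TRAJ24, CD8αβ (TRAV7-4, 1 read): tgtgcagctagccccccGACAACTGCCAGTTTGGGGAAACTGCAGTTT
The TRAJ24 sequences differed in 1 of 48 bases, ahead of the J part, and the remaining shared CDR3s differed in 1 or 2 bases. The 5 shared CDR3s held 62 CD8αα and 6 CD8αβ reads in all.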

How the data were processed

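CD8αα and CD8αβ T cells were sorted from the liver of TG mice and their poly(A) RNA was sequenced in bulk. The authors assembled clonotypes with MiXCR and deposited, for each, a read count without normalization. The deposited fraction of a clonotype is its count over all reads listed for the library, and it was not used. The mm10 build is named in the submitters' processing notes, and MiXCR settings are not given in the sources used here.

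From the counts, clonotypes with a first TRAV hit and a first TRAJ hit were kept, and shares were computed over them. The V hit was tied for 36.5% of CD8αα and 46.5% of CD8αβ clonotypes, and the J hit for 0. All CDR3s were productive. Depth was 1352 and 892 reads, from reads without molecular identifiers. The tests are two-sided Fisher's exact tests, Benjamini-Hochberg adjusted over 72 J genes (each gene against the others of its chain) or over 7 share tests, with a threshold of 0.05. Intervals of share differences and of mean differences are normal ones over clonotypes, and shares have 95% Wilson intervals. J bases of a CDR3 were the longest unbroken match to the GENCODE M21 germline gene that ended with the CDR3, and inserted bases lay between the end of the deposited V alignment and that match. Clonotypes with a mismatch in the deposited J alignment (11 and 15) were left out of trimming and insertion means.

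Genes named in the text were the 10 TRAJ genes with the most reads and the 10 with the most clonotypes in each library, those called by clonotypes, TRAJ18 and TRAJ33, with the 5 largest clonotypes per library, the leading V-J pairs and the clonotypes in both libraries. TRAJ39, TRAJ17, TRAJ16, TRAJ47 and TRAJ53 were named after their values were seen. The genes, zones and lists were chosen with earlier results of these data known. Alternatives were clonotypes of at least 2 reads, leaving out the largest or the 2 largest clonotypes of each library or the largest clonotype or CDR3 of each gene, merging CDR3s 1 base apart where 1 had at least 10 times the reads, an amino acid CDR3 with its J gene as the clonotype, leaving out shared clonotypes or tied hits, zones divided at TRAJ31, and length limits of 12 and 14 residues. The calculations were run in Python 3.11.15 (scipy 1.17.1, pandas 2.3.3, numpy 2.4.6), and the plots were drawn with matplotlib 3.10.9. The J gene tests by clonotypes were tried on simulated data, and the tests by reads were not.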

Additional observations from a re-analysis of the deposited data

Results flagged for a closer look

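Outside the TRAV-TRAJ clonotypes, TRAJ genes were also joined to V genes of the TCR δ-chain, which share the locus with the α-chain. In CD8αβ T cells 5 such clonotypes held 8 reads, above the floor of 3 reads, and in CD8αα T cells there were 0. They were 2 TRDV2-2-TRAJ49 clonotypes of 3 and 1 reads, TRDV1-TRAJ58 with 2 reads, and TRDV2-2-TRAJ56 and TRDV1-TRAJ27 with 1 read each. This was picked out as a signal in clonotypes that no comparison above used. The difference between the libraries was not tested.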

How the results depend on the processing

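Of 72 values recomputed under alternative settings, 17 could not change by construction (no J hit was tied, and merging clonotypes leaves reads per gene and length as they were). Of the other 55, 48 were classed as the same as the main value. For shares this meant the same direction and call, but for counts of called genes it allowed small changes of the count or of the genes. Some of the 55 could hardly change or were not separate. Leaving out shared clonotypes kept 221 of 222 and 451 of 452 clonotypes. With zones divided at TRAJ31 the 5′ and 3′ values mirror each other (-6.33 and 6.33 points by reads). With clonotypes of at least 2 reads, 29 TRAJ genes were called by reads, of which 27 were those of the main setting. With clonotypes of at least 2 reads, 0 TRAJ genes were called by clonotypes, with fewer clonotypes tested (151 and 171). Leaving out the clonotype with the most reads in each library gave a difference by reads of 3.55 points for the 5′ zone and -5.51 for the 3′ zone, and leaving out the 2 with the most reads, an alternative added after seeing the data, gave -4.31 for the 5′ zone (p = 0.0441, Fisher's exact test), the direction of the main value, and -4.37 for the 3′ zone (p = 0.0228, Fisher's exact test). In CD8αβ T cells a TRAJ26 and a TRAJ11 clonotype tied at 20 reads for the second place, and the TRAJ26 clonotype, listed first, was left out. For CDR3s by reads the difference was -0.589 points at a limit of 12 and -2.06 at 14 residues. For C-proximal V genes it was -11.5 points without tied V hits, and the cause was not tested. By reads, the 29 TRAJ genes called became 27 without the largest clonotype, of which 26 were the same genes, with TRAJ11, TRAJ13 and TRAJ26 lost and TRAJ32 gained. No paired analysis was possible because each group had 1 library. With 1 library per cell type, cell type and library cannot be told apart, and with 892 reads a TRAJ gene below 0.336% could be missed in CD8αβ T cells.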
